A study of Mus musculus with 6 samples.

Results

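Surfactant, the film of lipid and protein that lowers surface tension in the air spaces, is made by alveolar type 2 cells, and the 10 genes described here belong to that system or mark the alveolar epithelium. They are Sftpa1, Sftpb, Sftpc, Sftpd, Nkx2-1, Slc34a2, Lamp3, Napsa, Abca3 and Hopx, 10 of the 31053 gene identifiers counted. The list and its contrast were chosen on measured values, namely that Napsa, Abca3 and Hopx had higher counts in suspension than in adherent libraries while the surfactant protein genes had lower ones. The differences between the fractions are therefore given as a description, with no test. Changes over the days of culture were tested.

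Lungs of wild type C57BL6 mouse fetuses of embryonic day 17 (E17) were digested with liberase, frozen in DMSO and later plated on thin Matrigel. All 6 libraries share this history and the same HSPC medium, with the factors mTPO, IL6, SCF, FGF, VEGF and Flt3, and a wash with fresh medium on day 3. On days 4, 5 and 6 the floating cells were taken as the suspension fraction, and the attached cells were detached with accutase, and live cells bearing VE-cadherin were sorted from them, VE-cadherin being a surface protein of endothelial cells. Each fraction was sequenced as 1 library per day with 10x 3' v3 chemistry, which captures RNA by its 3' end in droplets. The sort limits the adherent group as a picture of the attached layer, since cells without VE-cadherin were meant to be removed. A fraction's 3 libraries are its 3 days. Nothing in the labels tells whether these came from separate cultures, so p-values speak for the variation among the 6 libraries alone, which may be technical.

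Whole libraries held 36451255 to 57784974 sense-strand counts, so that 3 counts correspond to 0.0594 to 0.0755 CPM (counts per 1000000, scaled by TMM). The tables have no cell axis, and in such sums fewer cells of a type and less RNA per cell cannot be told apart. Endothelial marker genes summed to 729, 1498 and 584 CPM in the adherent libraries of days 4, 5 and 6 and to 25.4 to 41.5 CPM in suspension. Of the suspension sums Vwf alone made up 12.2 to 25.7 CPM. Fibroblast marker genes summed to 2256 to 3240.5 CPM in the sorted adherent libraries, and markers of monocytes and macrophages to 18341 to 20342 CPM in suspension.

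In the fetal lung the distal epithelium forms alveolar type 2 cells, which store surfactant in lamellar bodies and secrete it, and flat alveolar type 1 cells, across which gas is exchanged. The transcription factor Nkx2-1 defines lung epithelium and activates the surfactant protein genes. Surfactant proteins B and C are hydrophobic, are cut from longer precursors by proteases such as napsin A, and are packed with lipid that Abca3 pumps into the lamellar body, whereas surfactant proteins A and D are collectins that bind microbes. Used surfactant is taken up again by type 2 cells or cleared by alveolar macrophages.

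Promoter sequences are shown first because the genes fell into 1 set with lower and 1 set with higher counts in suspension, and because Nkx2-1, a regulator of such promoters, is on the list. The RefSeq promoter table (GRCm38.p6) held 8 promoters for 7 of the 10 genes and none for Sftpc, Sftpd and Napsa. Each window of 300 bases, from 250 before to 50 after the start, was searched on both strands for GCNCTNNAG (the form of the Nkx2-1 site in the human SFTPB promoter), for CAAGTG (a core bound by NK2 homeodomain proteins) and for TGTTTAC (a forkhead core). Below are 150 bases upstream of the annotated gene start, 5' to 3', with matches in capitals, for a pair of genes with lower and a pair with higher counts in suspension.
Sftpa1 (chr14:41131632-41131781, plus strand): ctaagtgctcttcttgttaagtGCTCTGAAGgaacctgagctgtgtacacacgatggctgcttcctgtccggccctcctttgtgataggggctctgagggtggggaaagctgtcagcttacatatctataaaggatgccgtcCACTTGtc
Sftpb (chr6:72304460-72304609, plus strand): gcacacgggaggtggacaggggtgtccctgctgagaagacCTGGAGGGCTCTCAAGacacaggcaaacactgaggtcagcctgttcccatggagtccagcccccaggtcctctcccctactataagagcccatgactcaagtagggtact
Abca3 (chr17:24351800-24351949, plus strand): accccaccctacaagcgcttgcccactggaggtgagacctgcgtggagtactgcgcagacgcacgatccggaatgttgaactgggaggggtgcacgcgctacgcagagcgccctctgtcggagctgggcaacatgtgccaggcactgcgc
Hopx (chr5:77115124-77115273, minus strand): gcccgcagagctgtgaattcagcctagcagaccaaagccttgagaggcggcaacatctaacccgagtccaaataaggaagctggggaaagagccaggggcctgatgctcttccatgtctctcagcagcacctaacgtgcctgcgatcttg

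GCNCTNNAG matched Sftpa1 at -134 to -126 from its RefSeq start. In Sftpb it matched at -103 to -95 on the gene's strand and at -110 to -102 on the opposite strand, and the overlapping matches form 1 run of capitals. CAAGTG matched Sftpa1 on the opposite strand at -14 and again at -202, outside the stretch shown. Nkx2-1 had 1 match to GCNCTNNAG at -169 to -161, Lamp3 had TGTTTAC at -92 to -86, and a downstream start of Hopx had overlapping matches to GCNCTNNAG and CAAGTG between 33 and 41 bases after it. No match lay in the windows of Abca3, of Slc34a2 or of the upstream start of Hopx. Both sets of genes thus held windows with and without a match. Of all 32851 promoter windows of this length, 17.5% held GCNCTNNAG, 13.6% held CAAGTG and 3.65% held TGTTTAC, and a match is only a description of the letters.

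The 4 surfactant protein genes had their highest suspension level on day 4 and were lower on each later day, whereas in adherent cells they were lowest on day 5 and higher again on day 6. Sftpc (ENSMUSG00000022097, mm10 chr14:70520949-70524081), which codes for surfactant protein C and is a defining marker of alveolar type 2 cells, had 166, 19.6 and 6.81 CPM in suspension on days 4, 5 and 6. Its adherent levels were 765, 119.8 and 773 CPM on the same days. Sftpb (ENSMUSG00000056370, chr6:72304610-72314371) had 30.5, 2.48 and 0.317 CPM in suspension and 125, 38.8 and 87.3 CPM in adherent cells. Surfactant protein B, its product, is needed to form the lamellar body and the surface film. The suspension library of day 4 was the highest of its fraction for both genes, yet for Sftpb it stayed under all 3 adherent libraries, and for Sftpc it lay above the adherent library of day 5 alone.

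The collectin genes were likewise lower on each later day in suspension and lowest on day 5 in adherent cells. Sftpd (ENSMUSG00000021795, chr14:41172214-41185149) had 3.07, 0.929 and 0.139 CPM in suspension and 34.3, 15.5 and 25.3 CPM in adherent cells, and the fractions did not overlap. Sftpa1 (ENSMUSG00000021789, chr14:41131782-41136452) had 6.44, 0.834 and 0.0396 CPM in suspension against 10.8, 5.24 and 21.8 CPM. For Sftpa1 the suspension library of day 4 exceeded the adherent library of day 5, and the suspension library of day 6 held 2 counts. Together the 4 surfactant protein genes took 195, 22.6 and 6.39 reads per 1000000 suspension reads on days 4, 5 and 6, with exact 95% binomial intervals of 191 to 199, 21.3 to 24.1 and 5.75 to 7.07. In adherent libraries the same shares were 1043, 195.5 and 953. These intervals cover counting error only, and reads without molecular identifiers are not independent molecules.

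Nkx2-1, Slc34a2 and Lamp3 shared this course. Nkx2-1 (ENSMUSG00000001496, chr12:56531958-56536908) had 1.501, 0.191 and 0.0792 CPM in suspension, from 62, 8 and 4 counts, and 10.3, 5.79 and 6.03 CPM in adherent cells. Slc34a2 (ENSMUSG00000029188, chr5:53038081-53071664), the sodium-dependent transporter by which type 2 cells take up phosphate, had 300, 12 and 0 counts in suspension, or 7.26, 0.286 and 0 CPM. Its adherent levels were 27.9, 12.8 and 16.4 CPM. The 0 counts on day 6 allow a level of up to 0.0594 CPM. Lamp3 (ENSMUSG00000041247, chr16:19653378-19706375) codes for a membrane glycoprotein of lamellar bodies that mature dendritic cells also carry. It had 1.43, 0.143 and 0.0198 CPM in suspension, from 59, 6 and 1 counts, and 3.09, 0.957 and 5.45 CPM in adherent cells. The fractions did not overlap for Nkx2-1 and Slc34a2, and for Lamp3 they overlapped through the suspension library of day 4.

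Napsa, Abca3 and Hopx had another course, nearly level in suspension and lower in adherent cells. Napsa (ENSMUSG00000002204, chr7:44572380-44586862), the gene of the aspartic protease napsin A, had 121, 125 and 120.1 CPM in suspension and 14.9, 14.45 and 21.4 CPM in adherent cells. Every suspension library was thus above every adherent one. Abca3 (ENSMUSG00000024130, chr17:24351950-24410201), the lipid transporter of the lamellar body, had 30.2, 31.4 and 31.8 CPM against 16.5, 23.2 and 17.6 CPM. Hopx (ENSMUSG00000059325, chr5:77086988-77115121), a homeodomain cofactor found in alveolar type 1 cells and in other tissues, had 38.2, 35.5 and 31.5 CPM against 25.7, 25.1 and 25.9 CPM. The fractions did not overlap for any of the 3 genes, but for Hopx the lowest suspension and the highest adherent library lay close together.

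**Figure D1:**
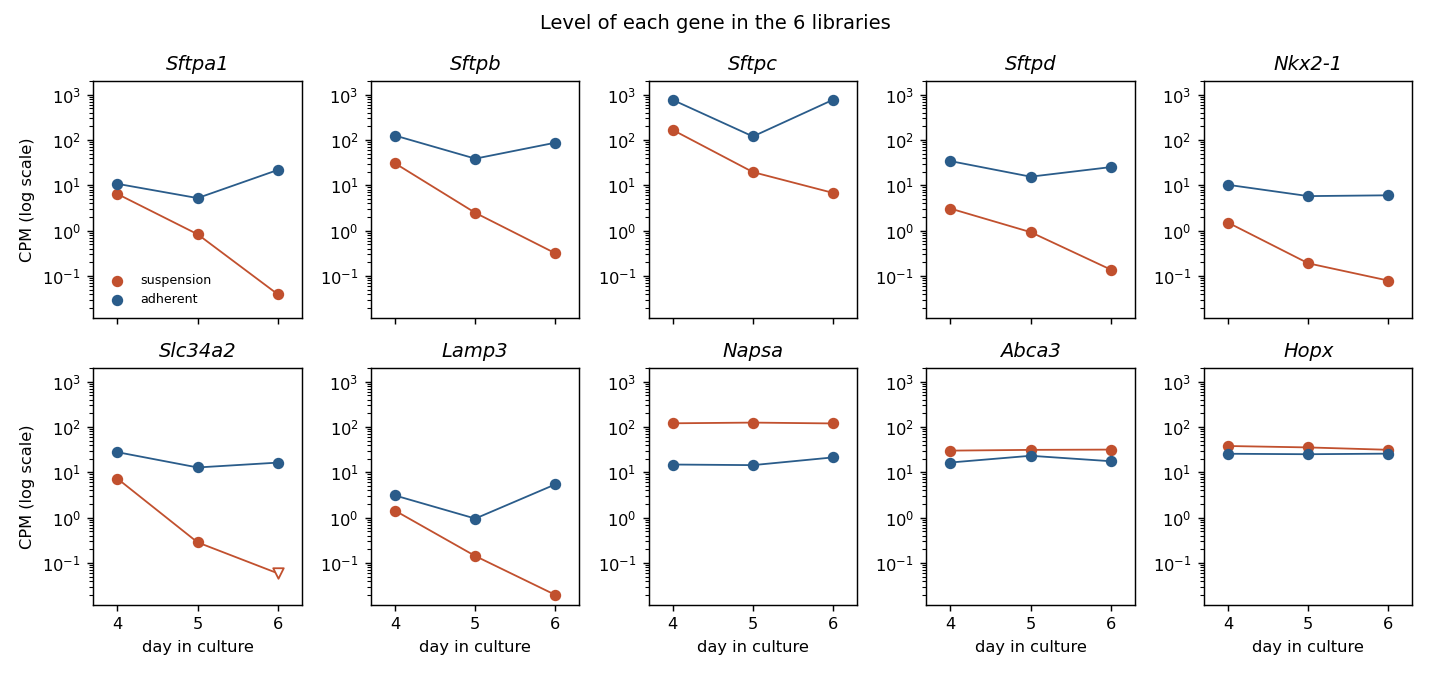
Level of each of the 10 genes in CPM (log scale, y axis) by day in culture (x axis), with suspension libraries in orange and adherent libraries in blue, 1 point per library and lines joining the days of a fraction. The open triangle marks the bound of 0.0594 CPM for Slc34a2, which had 0 counts in suspension on day 6; the first 7 genes are lower on each later day in suspension, and Napsa, Abca3 and Hopx are nearly level.

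Over the 3 days the suspension mean of Napsa was 122 ± 2.82 CPM (SD, n = 3) and the adherent mean 16.9 ± 3.89 CPM (SD, n = 3). For Abca3 the means were 31.1 ± 0.840 and 19.1 ± 3.60 CPM, and for Hopx 35.1 ± 3.36 and 25.6 ± 0.392 CPM (SD, n = 3 each). The spread over days in suspension was thus small for these 3 genes. For Sftpc it exceeded the mean, at 64.3 ± 88.7 CPM (SD, n = 3), against 553 ± 375 CPM in adherent cells. Coefficients of variation over the suspension days ran from 110% for Sftpd to 163% for Slc34a2 among the 7 genes and were 2.31%, 2.70% and 9.59% for Napsa, Abca3 and Hopx. In adherent cells the 7 genes varied less, from 34.2% for Nkx2-1 to 71.0% for Lamp3.

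Strand and overlapping transcripts bear on some of these counts. Hopx had 7886 sense-strand reads over the 6 libraries but 5880 when reads of either strand were counted, and 412 bases of its exons overlap those of the antisense gene Hopxos. Napsa overlaps the antisense gene Gm15396 by 502 exonic bases and had 18467 sense and 18384 either-strand reads. With reads of either strand the fitted log2 ratio of suspension to adherent was 0.36 for Hopx and 2.84 for Napsa, against 0.45 and 2.85 with sense reads. Abca3 overlaps D330041H03Rik on the opposite strand by 914 bases, and antisense reads came to 465 against 6567 sense reads. The remaining 7 genes had at least 91.7% of their either-strand number on the sense strand.

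The gap between libraries of the same day widened for the first group of genes and did not for the second. On day 4 the adherent level was 1.68-fold higher than the suspension level for Sftpa1, 4.10-fold for Sftpb, 4.599-fold for Sftpc and 11.1-fold for Sftpd. By day 6 it was 552-fold higher for Sftpa1, with a 95% counting interval of 152 to 4563 because of the 2 suspension counts. On the same day it was 276-fold higher for Sftpb, 114-fold for Sftpc and 182-fold for Sftpd. Sftpd had the widest gap of the surfactant proteins on day 4 and Sftpc the narrowest on day 6.

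For the regulator and the membrane proteins the pattern was alike. Nkx2-1 was 6.84-fold, 30.4-fold and 76.2-fold higher in adherent cells on days 4, 5 and 6. Slc34a2 was 3.84-fold and 44.9-fold higher on days 4 and 5 and at least 276-fold higher on day 6, taking 3 counts as the floor of the suspension library. Lamp3 was 2.16-fold and 6.69-fold higher and then 275-fold higher, with an interval of 48.9 to 10919 from 1 suspension count. Day 6 carried the widest gap for each of these 3 genes, and the smallest counts. In the opposite direction, Napsa was 8.12-fold, 8.67-fold and 5.61-fold higher in suspension on days 4, 5 and 6. Abca3 was 1.83-fold, 1.35-fold and 1.80-fold higher there, and Hopx 1.48-fold, 1.41-fold and 1.22-fold. Napsa and Hopx had their narrowest gap on day 6 and Abca3 on day 5.

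**Figure D2:**
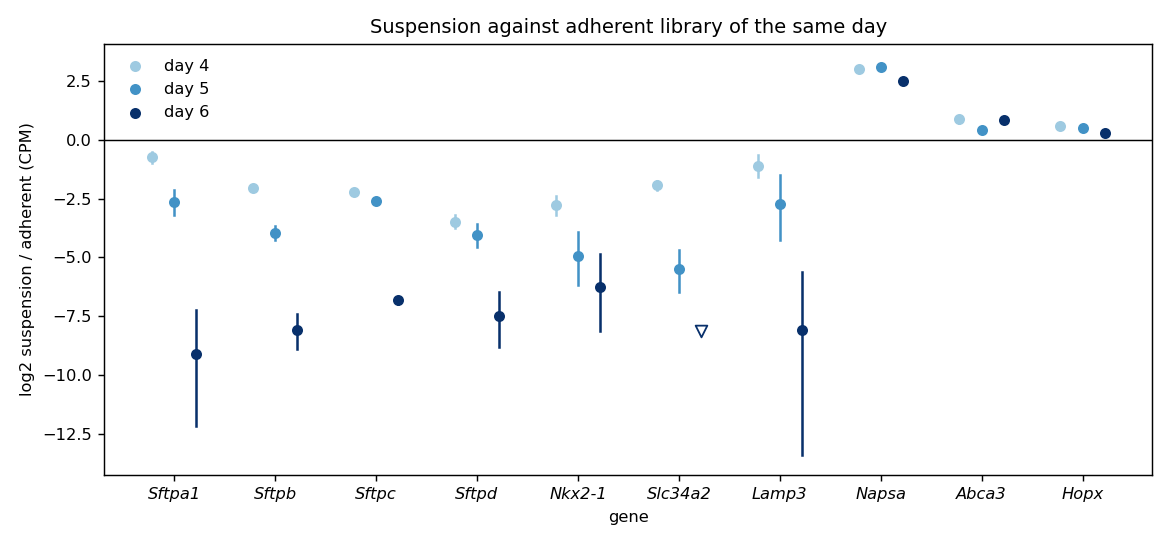
Log2 ratio of the suspension to the adherent library of the same day (y axis) for each gene (x axis), with darker points for later days and bars for 95% counting intervals from 1 library per fraction and day. The 7 genes on the left lie below 0 on every day and are lowest on day 6, and Napsa, Abca3 and Hopx lie above 0 on every day; the open triangle is the bound for Slc34a2.

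Fitted over the days, the log2 ratio of suspension to adherent was 2.85 ± 0.18 for Napsa, 0.70 ± 0.15 for Abca3 and 0.45 ± 0.10 for Hopx (± standard error). For the other genes it ran from -4.20 ± 0.93 for Sftpd to -2.38 ± 1.32 for Sftpa1. Without the suspension library of day 4 these 7 ratios were further from 0, from -7.17 for Slc34a2 to -4.91 for Sftpa1, and with the day as a block they ran from -4.596 for Sftpd to -3.11 for Sftpa1, with Slc34a2 at -4.53. Of the 10 genes, 3 had every suspension library above every adherent one, as did 33.4% of the 14912 genes tested, and 4 had every suspension library below, as did 34.4%. These values are those on which the list and its contrast were chosen, and nothing is read from the counts. The scaling mattered for the smallest ratios. With library totals in place of TMM the median over all genes tested moved from -0.00 to -0.24, and Napsa, Abca3 and Hopx stood at 2.62, 0.47 and 0.22. No gene of the 10 changed the sign of its ratio in any of the 12 or 13 alternatives that gave it a value. All 10 genes passed the filter on low counts, but Sftpa1, Sftpd, Slc34a2, Nkx2-1 and Lamp3 passed it through their adherent libraries, with 1 or 2 suspension libraries over the minimum of 0.236 CPM.

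The number of Napsa reads for each read of the 4 surfactant protein genes restates, within a library, the contrast on which the genes were chosen. It was 0.586, 5.26 and 16.4 in suspension on days 4, 5 and 6 and 0.0159, 0.0805 and 0.0236 in adherent cells. Abca3 gave 0.146, 1.32 and 4.36 reads per surfactant protein read in suspension and 0.0176, 0.130 and 0.0194 in adherent cells. For Hopx the numbers were 0.185, 1.49 and 4.31 in suspension and 0.0275, 0.140 and 0.0285 in adherent cells. These ratios are not per length, so only their change between libraries can be read. Within suspension all 3 ratios were highest on day 6, and in adherent cells all 3 were highest on day 5. The 3 ratios have the same denominator, so their common course is not 3 separate results.

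The next question was whether the levels changed with time in suspension. Slc34a2 fell by 4.77 ± 0.41 on the log2 scale per day (± standard error; edgeR quasi-likelihood test, adjusted p = 0.0323). It was the only member of the 10 to pass in the falling direction, and 0.402% of all genes tested did so, while 0.0939% rose. Without the suspension library of day 4, 5 or 6, which leaves 2 suspension points, the slope was -6.65, -5.65 and -4.65 and the adjusted p 0.526, 0.0534 and 0.688, and over all alternatives it lay between 1.40e-12 and 0.688. The gene had 2 suspension libraries over the filter's minimum and entered the test through its adherent libraries; without a filter on low counts its slope was -4.77 (adjusted p = 4.26e-05). The surfactant protein genes had slopes of -3.41 ± 0.47 (Sftpb, adjusted p = 0.0638), -3.26 ± 0.57 (Sftpa1, adjusted p = 0.0924), -2.32 ± 0.64 (Sftpc, adjusted p = 0.186) and -2.06 ± 0.38 (Sftpd, adjusted p = 0.102) in edgeR's test. Nkx2-1 stood at -2.33 ± 0.32 (adjusted p = 0.0638) and Lamp3 at -3.13 ± 0.82 (adjusted p = 0.167). None of these 6 passed.

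The number of members called depended on the libraries and the tool. All but Napsa, Abca3 and Hopx, that is 7 genes, had an unadjusted p under 0.05 and a negative slope in edgeR, as did 9.8% of all genes tested. Leaving out the adherent library of day 4, day 5 or day 6 gave 7 called members each time, where 2.23%, 2.41% and 2.42% of all genes fell, and leaving out any 1 suspension library gave 0. In this model the fractions share an estimate of the spread, and a fraction that has lost a library is fitted exactly by its line. A gene's own spread then came from the other fraction alone, so the 7 and the 0 do not measure how firm the fall was. DESeq2 called 6 members and 4.03% of all genes falling, and edgeR without a filter on low counts called 7 members and 2.75% of all genes. Napsa, at -0.01 ± 0.09, Abca3, at 0.04 ± 0.13, and Hopx, at -0.14 ± 0.06 per day, did not pass (adjusted p = 0.987, 0.919 and 0.341 in edgeR).

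Stated as folds between libraries, the day 4 suspension level was 96.4-fold the day 6 level for Sftpb and 24.4-fold for Sftpc. It was 22.2-fold for Sftpd, with a 95% counting interval of 10.5 to 56.3, and 19.0-fold for Nkx2-1, with an interval of 7.04 to 71.8. Slc34a2 was at least 122-fold higher on day 4 against the floor of 3 counts. The folds of Sftpa1, 163, and of Lamp3, 72.2, rest on 2 counts and 1 count, with intervals of 44.6 to 1350.0 and 12.5 to 2898. Hopx was 1.21-fold higher on day 4, and Napsa and Abca3 stood at 1.01 and 0.949 times their day 6 level. A lower level on day 5 than on day 4, and on day 6 than on day 5, was seen in 8 of the 10 genes, the 7 and Hopx, and in 24.9% of all genes tested.

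In adherent cells none of the 10 genes passed the test of a slope per day with edgeR or with DESeq2, and 1, Napsa, had an unadjusted p under 0.05 in edgeR, as did 19.2% of all genes tested with a rising slope. Its slope was 0.26 ± 0.09 log2 per day (edgeR, adjusted p = 0.128). Of all genes tested 7.75% rose and 3.52% fell in these libraries. Slopes of the 10 genes ran from -0.39 for Nkx2-1 to 0.52 for Sftpa1. Single libraries decided these values. With an adherent library left out, the adherent line fits exactly and a gene's own spread came from suspension alone. Without the adherent library of day 4, Sftpa1, Sftpb and Sftpc were called rising, at 2.06, 1.17 and 2.69 log2 per day (edgeR, adjusted p = 0.0369, 0.0369 and 0.0406), with 1.53% of all genes. Without that of day 6, Sftpb and Sftpc were called falling, at -1.69 and -2.67 (edgeR, adjusted p = 0.0158 and 0.0427), with 0.456% of all genes. Without that of day 5, Sftpa1 and Napsa were called rising and Slc34a2 falling, at 0.51, 0.26 and -0.38 (edgeR, adjusted p = 0.0387, 0.0389 and 0.0499), with 12.5% of all genes rising and 6.54% falling. A straight line passes over the day 5 values: in 9 of the 10 genes, all but Abca3, the adherent level was lowest on day 5, against 18.8% of all genes tested. For Napsa and Hopx the day 5 level was close to the others, at 14.45 and 25.1 CPM.

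The return on day 6 differed in size among the 7 genes. From day 5 to day 6 the adherent level was 6.45-fold higher for Sftpc, 5.70-fold for Lamp3 and 4.17-fold for Sftpa1. It was 2.25-fold higher for Sftpb, 1.63-fold for Sftpd, 1.28-fold for Slc34a2 and 1.04-fold for Nkx2-1. Day 6 exceeded day 4 for Sftpa1, at 2.02-fold, and for Lamp3, at 1.76-fold, while Sftpc had the same level on both days within 1.01-fold. Sftpb, Sftpd, Slc34a2 and Nkx2-1 stood at 0.698, 0.737, 0.589 and 0.588 of their day 4 level. With 1 library per day these differences have no replicate. Endothelial markers had their highest sum, 1498 CPM, in the adherent library of day 5, in which each of the 7 genes had its lowest adherent level. Abca3 had its highest adherent level there, at 23.2 CPM. The part of cell composition in the day 5 values was not tested.

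Whether the slope itself differed between the fractions was tested as an interaction. Slc34a2 fell more steeply in suspension, with a difference in slope of -4.39 ± 0.49 log2 per day (edgeR, adjusted p = 0.0485), and 0.463% of all genes tested had a difference called in that direction. On leaving out the day 4, 5 or 6 library of suspension the difference was -6.23, -5.23 and -4.23 and the call was lost (adjusted p = 0.479, 0.102 and 0.701). It was also lost with library totals in place of TMM (adjusted p = 0.0520). The adjusted p ranged from 1.03e-08 to 0.701 over all alternatives and was 0.000581 without a filter on low counts, through which this gene passed by its adherent libraries. The differences of the other 6 genes lay between -3.77 ± 0.67 for Sftpa1 and -1.84 ± 0.45 for Sftpd, with adjusted p between 0.0815 and 0.210 in edgeR. All 6 had an unadjusted p under 0.05, as did 14.4% of all genes tested in that direction. Napsa, Abca3 and Hopx had differences of -0.27 ± 0.13, -0.01 ± 0.18 and -0.14 ± 0.09 (adjusted p = 0.325, 0.988 and 0.417 in edgeR). For the 7 genes the median difference was -3.15, for these 3 it was -0.14 and for all genes tested -0.07. The 7 genes and these 3 were grouped by their values in these same libraries, so the medians are a description, with no test.

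**Figure D3:**
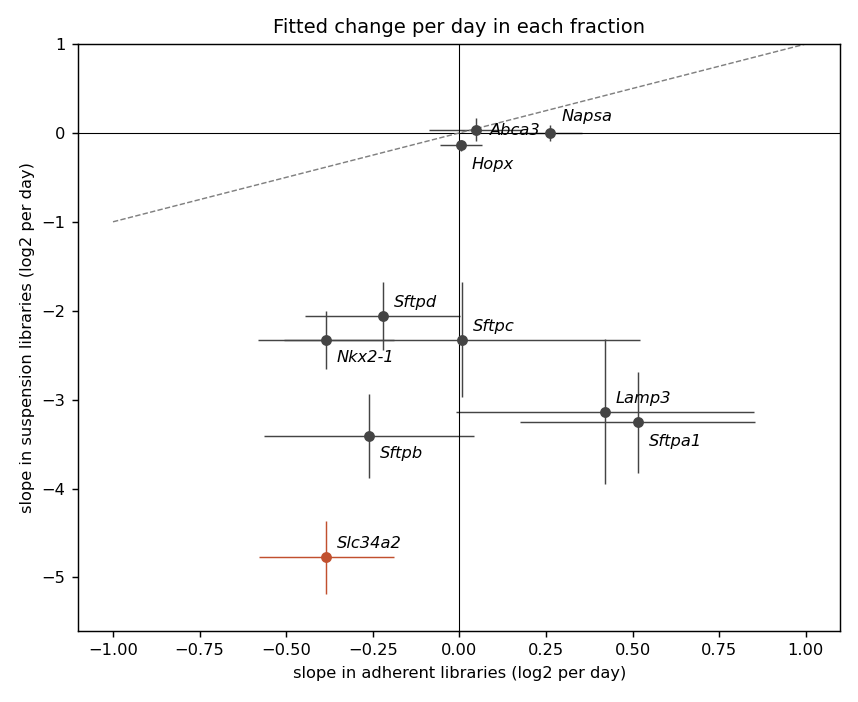
Fitted slope per day in suspension (y axis) against that in adherent libraries (x axis), both in log2 per day, 1 point per gene with bars of 1 standard error; the dashed line marks equal slopes, and the orange point is Slc34a2, which passed the test in suspension. Slc34a2 and the 6 genes Sftpa1, Sftpb, Sftpc, Sftpd, Nkx2-1 and Lamp3 lie below -2 on the y axis, while Napsa, Abca3 and Hopx lie near 0.

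A slope shared by both fractions was called for none of the 10 genes by edgeR or by DESeq2. Nkx2-1 had an unadjusted p of 0.0489 in edgeR, at -0.99 ± 0.39 log2 per day (adjusted p = 0.243), and was the only member under 0.05, against 8.62% of all genes tested with a falling slope. The shared slope was called rising in 0.0134% and falling in 0.0% of all genes tested.

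Other genes of the surfactant system were read from gene lists. Across all genes tested, 27.1% were called higher and 29.7% lower in suspension, so that 47.8% of calls were higher; with library totals in place of TMM 34.3% were. Of 16 genes for surfactant uptake and clearance, all tested, 12 were higher in suspension and 1 lower, with a median log2 ratio of 2.14. Among them Fabp4, a fatty acid carrier of alveolar macrophages, had 2023, 1789 and 2220.5 CPM in suspension and 229, 303 and 719 CPM in adherent cells (2.27 ± 0.44 log2, edgeR, adjusted p = 0.00552). Of these 16 genes 11 rose with the days in adherent cells, as did 7.75% of all genes tested. Csf2ra, the binding chain of the GM-CSF receptor through which macrophages are set to clear surfactant, had 17.8, 25.7 and 39.7 CPM in adherent cells on days 4, 5 and 6.

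Of 13 measured proteases of surfactant precursors and lamellar body genes 9 were called higher in suspension, with a median log2 ratio over the 13 of 0.82. Ctsd, the lysosomal aspartic protease cathepsin D, had 9199, 9586 and 7949 CPM in suspension and 1317, 1861 and 3100.3 CPM in adherent cells. Ctsd, Ctsb, Ctsc, Lamp1 and Lamp2 rose in adherent cells, by 0.39 to 0.62 log2 per day. Of 20 genes of lipid synthesis 9 were higher and 4 lower in suspension, with a median of 0.31. Fabp5 at 1.86 ± 0.34 and Elovl1 at 0.60 ± 0.11 log2 were among the higher (edgeR, adjusted p = 0.00468 and 0.00548). The 4 lower were Lpcat1, Pcyt1b, Scd1 and Elovl6. Scd2, at -0.50 ± 0.33 log2, was not called (edgeR, adjusted p = 0.240).

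Between the fractions, other alveolar type 2 genes were called in both directions, at shares near those of all genes tested. Of 15 tested 4 (26.7%) were higher in suspension (Chil1, Ctsh, Lyz1 and Cebpa) and 5 (33.3%) lower (Etv5, Muc1, Fgfr2, Lpcat1 and Ank3), with a median log2 ratio of -1.30. Among all genes tested 27.1% were called higher and 29.7% lower. Ctsh, a protease that also cuts surfactant precursors, had 298, 262 and 292 CPM in suspension and 191, 99.0 and 192 CPM in adherent cells, lowest on day 5 in both. Chil1, a chitinase-like protein, was the 1 gene of this list with a called slope in suspension, where it rose by 1.08 ± 0.10 log2 per day (edgeR, adjusted p = 0.0379). In 7 of the 15 the suspension slope was negative with an unadjusted p under 0.05 in edgeR, as in 9.8% of all genes tested. In adherent cells 9 of the 15 had their lowest level on day 5, against 18.8% of all genes tested. Of 13 tested alveolar type 1 genes 11 were lower in suspension, with a median of -3.83. Hopx, though a type 1 gene, thus stood on the other side from Ager at -3.47 ± 0.73 and Emp2 at -4.56 ± 0.81 log2 (edgeR, adjusted p = 0.00754 and 0.00398). Pdpn, at -0.89 ± 0.33, and Rtkn2, at -0.10 ± 0.36 log2, were not called (edgeR, adjusted p = 0.0562 and 0.822). Cav1, a caveolar coat gene, fell by 1.61 ± 0.15 log2 per day in suspension and by 0.76 ± 0.11 in adherent cells.

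Of 18 transcription factors of lung epithelium 11 were lower in suspension, with Nkx2-1 not counted among them, and 2, Id2 and Cebpa, were higher. Foxp1 had 52.9, 52.1 and 54.3 CPM in suspension and 102, 111 and 96.0 CPM in adherent cells (-0.95 ± 0.09 log2, edgeR, adjusted p = 0.000647). Its level varied little with the days in either fraction.

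General epithelial markers give the background for the members' course. Of 15 tested 7 were called lower in suspension, with a median of -3.11. In suspension 6 fell in edgeR's test, Krt7, Krt8, Krt18, Krt19, Cldn4 and Cldn7, with slopes of -2.50 to -1.94 log2 per day, and 9 of the 15 also fell in adherent cells. Among all genes tested 0.402% were called falling in suspension and 3.52% in adherent cells. Krt18, a keratin of simple epithelia, had 27.2, 4.76 and 1.19 CPM in suspension and 243, 73.5 and 30.04 CPM in adherent cells. The list summed to 126, 41.6 and 23.2 CPM in suspension and to 997, 334 and 253 CPM in adherent cells. The sum of the 7 genes was 217, 24.5 and 7.40 CPM in suspension and 977, 199 and 935 CPM in adherent cells. From day 5 to day 6 of adherent culture the epithelial sum was thus lower and the sum of the 7 genes higher, and 1 of the 15 markers had its lowest adherent level on day 5. Sftpc made up most of the sum of the 7 genes, at 765, 119.8 and 773 CPM in adherent cells on days 4, 5 and 6. Gene by gene, the rise from day 5 to day 6 ran from 1.04-fold for Nkx2-1 to 6.45-fold for Sftpc.

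The sum of the airway epithelial markers had another course, at 9.69, 66.2 and 86.3 CPM in adherent cells and at most 6.90 CPM in suspension. Scgb1a1, the club cell secretory protein, made up most of it on adherent days 5 and 6. It had 2.61, 59.1 and 61.3 CPM in adherent cells. Gene by gene, 5 of 8 tested airway markers were lowest on day 5 in adherent cells, against 18.8% of all genes tested. Krt5, a basal cell keratin, had 0 counts in every library. Myeloid markers were higher in suspension too. Markers of monocytes and macrophages summed to 20133, 18341 and 20342 CPM in suspension and to 3047, 3844 and 7645 CPM in adherent cells. Of these 13 markers 12 were called higher in suspension and 8 rising in adherent cells, against 27.1% and 7.75% of all genes tested. All 8 neutrophil markers were called higher in suspension, with sums of 25290, 32257 and 75736 CPM there on days 4, 5 and 6 and 225, 744 and 963 CPM in adherent cells. Over the same days the sum of Napsa, Abca3 and Hopx was 189, 192 and 183 CPM in suspension and 57.1, 62.8 and 64.9 CPM in adherent cells. Of 10 tested dendritic cell genes 8 were higher and 2, Fscn1 and Zbtb46, lower, with sums of 188 to 288 CPM against 126 to 156 CPM. Fscn1 made up 99.9, 112 and 66.5 CPM of the adherent sums on days 4, 5 and 6. Of 3 tested B cell genes 2 were higher and 1, Ebf1, lower, with sums of 14.1 to 16.98 CPM against 6.62 to 13.9 CPM. Ebf1 made up 6.02, 7.75 and 12.3 CPM of the adherent sums. The part of these cells in the counts of Napsa, Abca3 and Hopx was not tested, and the fraction and its cell makeup cannot be told apart in whole-library counts.

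Endothelial and fibroblast markers lay on the side of the surfactant genes. Of 10 endothelial markers 9 were called lower in suspension, with Vwf higher, and all 8 fibroblast markers were called lower. In suspension the endothelial sum was 40.8, 41.5 and 25.4 CPM on days 4, 5 and 6 and the fibroblast sum 230, 158 and 79.5 CPM, while the sum of the 7 genes went from 217 to 7.40 CPM. Vwf made up 20.6, 25.7 and 12.2 CPM of this endothelial sum.

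**Figure D4:**
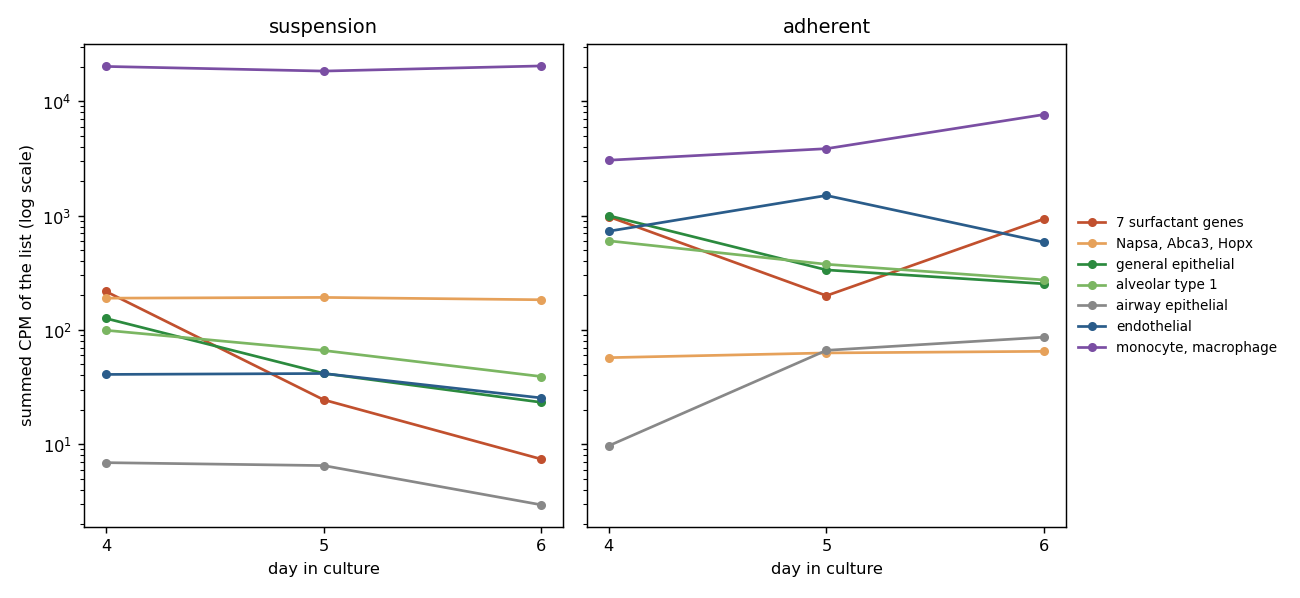
Summed CPM of gene lists (log scale, y axis) by day in culture (x axis) in suspension (left) and adherent libraries (right), 1 point per library. In suspension the 7 surfactant genes go from 217 to 7.40 CPM while Napsa, Abca3 and Hopx together hold between 183 and 192 CPM. In adherent cells the sum of the 7 genes returns to 935 CPM on day 6, of which Sftpc is 773 CPM. The sum of the general epithelial markers does not return.

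The genes whose profile over the 6 libraries was nearest to each of 4 members were named by the root mean square difference of centred log2(CPM + 0.5) values among 5908 genes with a mean of at least 20 CPM. As a description over 6 libraries that share depth and scaling, Sftpc was nearest to Sftpb (0.52), Cryab (0.71) and Wfdc2 (0.80), and the second is a small heat shock protein and the last a secreted epithelial protein. Napsa was nearest to Tuba4a (0.09), Gsr (0.11) and Naip2 (0.12), and its nearest member of the list, Abca3, lay at 1.102. Abca3 was nearest to Itga6 (0.05), Apaf1 (0.06) and Lrp10 (0.06), and Hopx to Tmem199 (0.03), Grpel1 (0.04) and Gtf3a (0.04). Abca3 and Hopx differed from each other by 0.23, and from Sftpc by 2.84 and 2.63. Napsa, at 3.68 from Sftpc, lay farther from it than from any other member except Sftpb, at 3.85.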

How the data were processed

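RNA of 3 suspension and 3 adherent libraries was sequenced. Tools named per the submitters' processing notes are bcl2fastq, STARsolo and Cell Ranger, with mm10 as the genome (versions: not given in the sources used here). Each deposited table gives raw read counts per Ensembl identifier for a whole library, with 4 summary lines that were left out and separate columns for either, sense and antisense strand. Nothing corrects for molecular identifiers, so droplets without a cell and repeated reads may contribute. The sense column was used. Gene symbols and positions are those of GENCODE M21, which held 31011 of 31053 identifiers.

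Of 22019 genes with any count, 14912 passed filterByExpr and were tested with edgeR 4.0.16 (limma 3.58.1, R 4.3.3; TMM, quasi-likelihood F test, Benjamini-Hochberg over all genes tested, threshold 0.05). Models had the fraction alone, fraction and day, or a slope per fraction, and all libraries of a fit shared an estimate of the spread. The standard error is the log2 value over the root of F. Scripts were tested on simulated data. Libraries of the same day, a label both fractions share, deviated together (correlations across genes 0.338, 0.140 and 0.282, other days -0.305 to 0.0134). The day was therefore used as a block in an alternative. Shared cultures and a shared course over the days cannot be told apart in these correlations. Calls between the fractions are from the model with the fraction alone, unless the block is named. Further alternatives were either-strand reads, DESeq2 1.42.0 (size factors, Wald test), library totals, other filters and leaving out each library.

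The members and the gene lists were chosen with earlier results of these data known. Lists covered alveolar type 2 and type 1 genes, lipid synthesis, uptake and clearance, precursor proteases and lamellar body (Gpr116 not matched), epithelial transcription factors, and markers of epithelium, airway, monocytes and macrophages, dendritic cells, B cells, endothelium, fibroblasts and neutrophils. Some genes stand in more than 1 list. All 10 members are named. Of each other list the rule allows the 3 genes with the highest mean CPM and those called in a day test. Genes listed as calls beside them, with Vwf, Krt5 and Rtkn2, were added after their values were seen.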

Additional observations from a re-analysis of the deposited data

Results flagged for a closer look

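The change per day differed between the fractions, by the interaction test, for Slc34a2 and for 3 genes of the other lists (edgeR, adjusted p = 0.0485 each). For Slc34a2, the phosphate transporter of type 2 cells, the suspension slope minus the adherent slope was -4.39 ± 0.49 log2 per day, with 300, 12 and 0 counts in suspension and 1209, 510 and 705 in adherent libraries on days 4, 5 and 6. For Csf2ra the difference was -0.75 ± 0.08, with levels of 189, 165 and 148 CPM in suspension and 17.8, 25.7 and 39.7 CPM in adherent cells. For Id2, an inhibitor of helix-loop-helix factors, it was -0.96 ± 0.10, with 338, 285 and 300.3 CPM in suspension and 46.4, 86.5 and 155 CPM in adherent cells. For Pparg, a nuclear receptor that alveolar macrophages need, it was -0.97 ± 0.11, with 39.5, 42.01 and 38.0 CPM against 2.88, 5.34 and 10.6 CPM. The last 3 rose in adherent cells and had no called slope in suspension, whereas Slc34a2 fell in suspension.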

How the results depend on the processing

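No sign of a ratio between the fractions changed for any of the 10 genes in the settings run; Sftpa1, Lamp3 and Nkx2-1 had no value under the filter of 10 CPM in 3 libraries. With collection day as a replicate block 8417 genes were called between the fractions (4074 higher and 4343 lower) against 8467, and the ratio of Slc34a2 was -4.53 against -2.93. The filter of 10 CPM left 5106 calls. Shared slopes were called for 2 genes, and for 0 with library totals, 1457 with DESeq2, 66 without a filter and 0 to 13 on leaving out a library. For suspension slopes 74 genes and 1 member were called. Library totals gave 150 and 3, DESeq2 786 and 6, no filter 809 and 7, either-strand reads 2 members, and leaving out a library 0 to 544 and 0 to 7. Adherent slopes had 1681 calls, 2646 without a filter and 288 to 2902 on leaving out a library, with 0 to 2 members falling and, without the adherent library of day 4, 3 rising. Slope differences had 77 calls and 1 member; library totals gave 13 and 0, DESeq2 1021 and 6, no filter 1006 and 7, and leaving out a library 0 to 859 and 0 to 7. The causes were not tested.

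Slopes that changed sign were not called with all libraries. The adherent slope of Sftpc was -0.0045 with either-strand reads, -0.0070 with DESeq2's size factors and with its Wald test, -0.0359 with library totals and -0.0184 with the 10 CPM filter; for Hopx these were -0.0149, -0.0099, -0.0099, -0.0387 and -0.0213. With library totals Abca3 stood at -0.0071 for the shared and -0.0170 for the suspension slope. Leaving out 1 library, shared slopes ranged from -2.55 to 0.19 for Sftpa1, -2.54 to 0.25 for Lamp3, -0.012 to 0.19 for Napsa and -0.048 to 0.13 for Abca3, and suspension slopes from -0.10 to 0.053 for Napsa and -0.021 to 0.057 for Abca3. Adherent slopes ranged from -1.04 to 2.06 (Sftpa1), -1.69 to 1.17 (Sftpb), -2.67 to 2.69 (Sftpc), -1.14 to 0.70 (Sftpd), -0.043 to 0.57 (Napsa), -0.40 to 0.49 (Abca3), -1.69 to 2.51 (Lamp3), -1.12 to 0.35 (Slc34a2), -0.82 to 0.059 (Nkx2-1) and -0.036 to 0.042 (Hopx). Slope differences ranged from -5.03 to 0.34 for Sftpc, -0.57 to 0.038 for Napsa and -0.46 to 0.44 for Abca3. The smallest counts stood in the suspension libraries of days 5 and 6, where Lamp3, Nkx2-1, Slc34a2, Sftpa1 and Sftpd had between 0 and 39 counts.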
